A study of Mus musculus with 48 samples.

Results

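The 76 genes described here encode the proteins of the mitochondrial ribosome that carry Mrpl or Mrps symbols. They were chosen by name, as the rows whose symbol is Mrpl or Mrps followed by a number and at most 1 letter and whose mean over the 48 samples was at least 1 on the log2 scale, and the rule uses no measured response. All 76 rows with such a symbol passed that minimum, out of 13409 genes tested, with 48 Mrpl and 28 Mrps symbols. The samples were STHdh cells, mouse striatal neuronal progenitor lines that were conditionally immortalized from knock-in embryos and carry either wild-type (STHdhQ7) or polyglutamine-expanded (STHdhQ111) huntingtin. Each genotype was 1 line, the strain given was C57BL/6, and the knock-in of the STHdhQ111 line was homozygous.

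All cells were kept for 24 h in serum-free medium, and each of the 16 conditions had 3 samples. STHdhQ7 and STHdhQ111 cells received vehicle (DMSO), and STHdhQ111 cells also received 1 of 14 compounds. Diacylglycerol kinase inhibitor II (DKI), selisistat, meclizine, loxapine and cyproheptadine were given at 10 µM, pizotifen at 5 µM and cysteamine at 250 µM. Sodium butyrate was given at 1 mM, 4-deoxypyridoxine at 4 mM, fingolimod phosphate at 250 nM, trichostatin A at 10 nM, nortriptyline at 1 nM, and nicotinamide and haloperidol at 0.5 nM. Group A denotes cyproheptadine, loxapine and pizotifen, and Group B denotes DKI and meclizine. The study set these compounds beside the vehicle to compare their molecular effects on mutant cells.

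The mitochondrial ribosome translates the messages of the mitochondrial genome, which encode core subunits of the respiratory chain and of ATP synthase. Its proteins are all encoded in the nucleus, made by cytosolic ribosomes and imported. Many descend from bacterial ribosomal proteins, and others are found only in mitochondria. The symbols do not always give the place: Mrps30 and Mrps18a belong to the large subunit, and Mrps36 has been assigned to the 2-oxoglutarate dehydrogenase complex. Placed in this way, 50 of the genes encode large subunit proteins, 30 of them with bacterial homologues and 20 without, 25 encode small subunit proteins, 16 with and 9 without bacterial homologues, and 1 is Mrps36. Mrps18a and Mrps18b are counted here as without bacterial homologues, although both are related to a bacterial protein.

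Values are the log2 normalized abundances that were deposited, and neither their transformation nor the read depth is given in the sources used here. The 48 samples had similar totals, with the highest 1.11 times the lowest after return to the linear scale. Of the neural progenitor markers, 5 of 8 had means over 5, with Vim at 15.42, Sox9 at 9.38 and Notch1 at 7.96, while Fabp7 was at 0.71. All 4 fibroblast markers were over 5, with Col1a1 at 14.52, as were 0 of 4 microglial, 1 of 3 astrocyte (Slc1a3, 7.11) and 0 of 2 oligodendrocyte markers that the table listed. The striatal markers Foxp1 and Meis2 were at 9.88 and 7.57, and the dopamine receptor gene Drd1 (−2.18), Gad1 (−1.16) and Gad2 (−0.38) were all below 0. Nothing in the sources says whether the 3 samples of a condition came from separate cultures, so p-values measure the spread between these samples only.

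The genes were expressed at moderate levels, with means from 5.01 to 9.75. Their means over the 48 samples had a median of 8.63, at percentile 60.2 of the genes tested. The lowest was Mrpl23 (5.01 ± 0.19, SD, n = 48), followed by Mrpl36 (6.38 ± 0.19) and Mrps12 (7.13 ± 0.14). The highest were Mrps6 (9.75 ± 0.15), Mrps9 (9.69 ± 0.17) and Mrpl10 (9.65 ± 0.08). Since these abundances are not divided by length, levels of different genes were compared as log2 abundance per kb of transcript, on which scale Mrpl20 (10.22), Mrpl33 (10.16) and Mrps6 (9.99) were highest and Mrpl23 (5.54), Mrps25 (5.62) and Mrpl19 (6.10) lowest. The transcripts were short, with a median annotated length of 1224.5 bases against 2740.25 for the 12974 genes tested that had a length.

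The genes lay on 17 chromosomes in the GENCODE annotation of GRCm38, with 10 of them on chromosome 11. A coding gene started head to head within 1000 bases of 26 of them (34.2%), against 14.4% of the 12972 tested coding genes. Mrps11 and Mrpl46 form such a pair with each other, and Mrpl36 forms one with Ndufs6, a subunit of respiratory complex I. The reads were 50 bases long, and 11 genes shared over 10% of their 50-base stretches with another annotated gene, so that their counts could in part be divided with it. Mrpl53, with 82.0% shared, is the most uncertain of these, followed by Mrps34 (34.2%, shared with Nme3). In addition, 35 genes overlapped a gene on the other strand, whose reads can be told apart only where strand was used in counting. On the same strand, Mrps6 overlaps Slc5a3, which encodes a myo-inositol transporter, and values of Slc5a3 are given beside those of Mrps6.

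The 76 genes varied little between conditions. The SD of the 16 condition means had a median of 0.10 over the genes, against 0.12 over all genes tested, while the pooled SD within conditions had a median of 0.085. Mrpl48 varied most between conditions (SD of condition means 0.20), followed by Mrpl36 (0.18), Mrpl33 (0.17) and Mrps36 (0.17). Mrpl39 (0.049), Mrpl4 (0.062), Mrpl19 (0.063) and Mrpl40 (0.069) varied least. The genes also moved together: after removal of the collection day, the Pearson correlation of a gene with the mean of the other 75 members over the 48 samples had a median of 0.60, and 49 of 76 (64.5%) were above 0.5. Of the other genes tested, 7.76% correlated above 0.5 with the mean of the 76, and their median was 0.0068. Mrpl52 (0.84), Mrpl15 (0.83) and Mrps23 (0.82) followed the others most closely, and Mrpl3 (0.035), Mrps31 (0.11) and Mrps34 (0.12) least. These correlations are descriptions over samples that share conditions and library properties, and carry no p-value.

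To show the level of the genes in each sample, each gene's deviation from its own mean over the 48 samples was taken, and the median over the 76 genes was formed. The STHdhQ7 samples were the lowest condition, at −0.12, −0.12 and −0.13. The STHdhQ111 vehicle samples were at −0.14, −0.11 and 0.0083, so that replicate 3 stood apart from the other two. DKI was the highest condition, at 0.17, 0.11 and 0.070, and its 3 samples lay above the vehicle samples. In bulk RNA, fewer cells that express a gene and less of its RNA per cell cannot be told apart. Haloperidol, at −0.044, −0.10 and −0.12, lay within the range of the vehicle samples. Selisistat was widely spread, with replicate 2 at 0.14 and the others at −0.049 and −0.064.

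**Figure D1:**
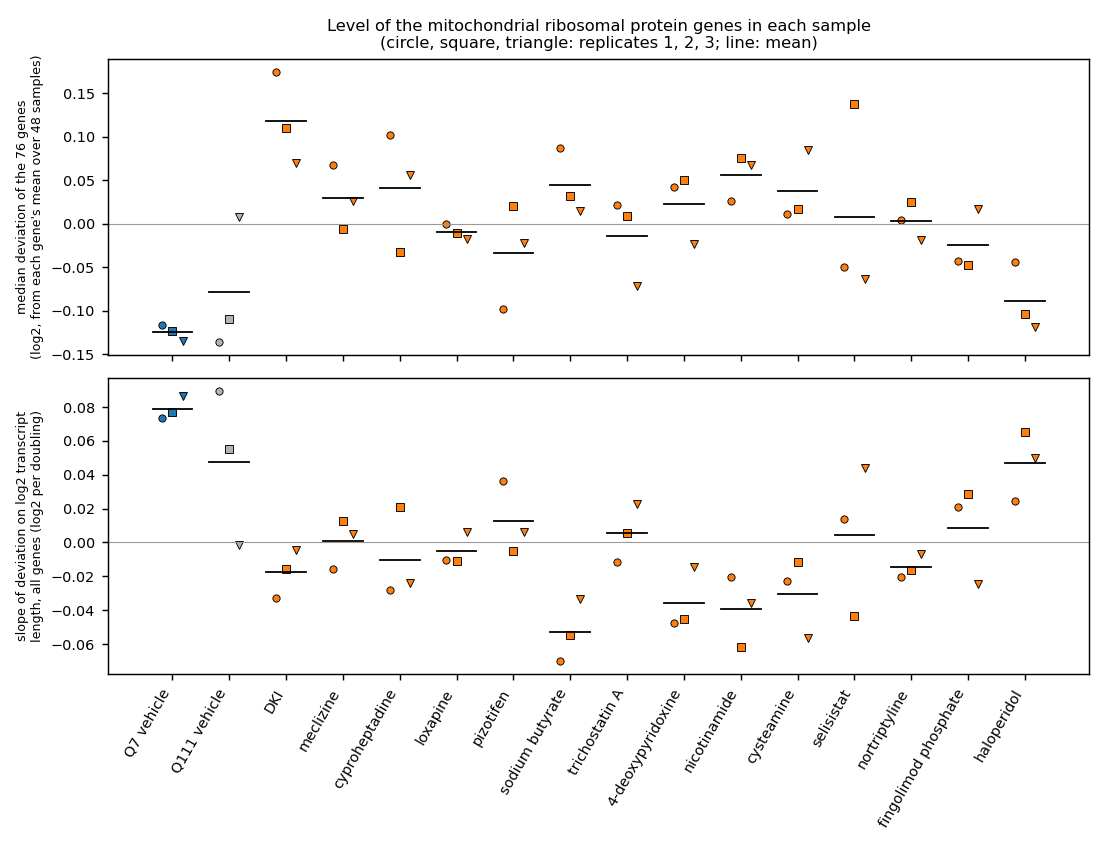
Each point is a sample, by condition on the horizontal axis. The upper panel plots the median log2 deviation of the 76 genes and the lower panel the slope of all genes' log2 deviation on log2 transcript length. DKI has the highest mean of the upper panel, with samples at 0.070 to 0.17 that overlap those of other compounds, and vehicle replicates 1 and 2 sit at −0.14 and −0.11 above slopes of 0.089 and 0.055.

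The samples also differed in a trend over transcript length that covered all genes, and it moved with the level of these short transcripts. The slope of the deviation on log2 length was 0.089, 0.055 and −0.0018 in the STHdhQ111 vehicle samples 1 to 3, 0.074 to 0.086 in STHdhQ7 and 0.025 to 0.065 in haloperidol, the 3 conditions with the lowest medians. It was −0.070 to −0.034 in sodium butyrate, −0.062 to −0.020 in nicotinamide, −0.056 to −0.011 in cysteamine and −0.047 to −0.015 in 4-deoxypyridoxine. In DKI it was −0.033 to −0.0042 and in meclizine −0.016 to 0.013. Differences from the vehicle were therefore also computed after removal of each sample's trend on transcript length and GC content. Compounds were also compared with 4 compounds given at 250 nM or less, without trichostatin A. These 4 were haloperidol, fingolimod phosphate, nicotinamide and nortriptyline, 12 samples. Both the trend removal and this comparator were added after the data had been seen.

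DKI, an inhibitor of diacylglycerol kinases, was the compound with the most changes. Of the 76 genes, 47 were higher and 2 lower than in STHdhQ111 vehicle cells (limma, Benjamini-Hochberg adjusted p under 0.05), which is 61.8% higher against 20.4% of all genes tested. The median log2 difference was 0.22, a rise of 16.4%, and 68 of 76 genes had a positive difference. By place, 32 of 50 large subunit genes and 15 of 25 small subunit genes rose, with medians of 0.23 and 0.20. Among those counted with bacterial homologues 20 of 30 large subunit and 8 of 16 small subunit genes rose. Among those counted without, which include Mrps18a and Mrps18b, 12 of 20 and 7 of 9 rose.

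Mrpl24 (ENSMUSG00000019710, chr3:87919506-87923672 on the plus strand of GRCm38) showed the largest rise. Its log2 abundance was 9.21, 8.97 and 9.07 with DKI and 8.54, 8.53 and 8.53 with vehicle, a log2 difference of 0.55 ± 0.07 (SE, adjusted p = 1.07e-07). The 2 groups did not overlap, and the SD of the 3 vehicle samples was 0.0049. Mrpl24 encodes uL24m, a protein at the exit of the peptide tunnel of the large subunit.

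Mrpl47, which encodes another large subunit protein with a bacterial homologue (uL29m), was at 8.40, 8.34 and 8.20 with DKI and 7.62, 7.84 and 7.88 with vehicle (log2 difference 0.53 ± 0.08, adjusted p = 1.54e-06). Mrps17, a small subunit gene of bacterial descent, was at 9.29, 9.17 and 9.19 against 8.61, 8.76 and 8.80 (0.50 ± 0.06, adjusted p = 4.12e-09). Mrpl52, found only in mitochondria, was at 7.88, 7.64 and 7.59 against 7.03, 7.18 and 7.44 (0.49 ± 0.12, adjusted p = 0.00115). In all 3 genes the lowest DKI sample lay above the highest vehicle sample, although for Mrpl52 the gap to vehicle replicate 3 was the narrowest of the 3.

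Mrps18b is 1 of 3 genes related to a single bacterial small subunit protein. It rose from 8.15, 8.06 and 8.16 to 8.74, 8.52 and 8.56 (0.48 ± 0.07, adjusted p = 6.91e-07). The related Mrps18a rose by 0.32 ± 0.09 (adjusted p = 0.00299), while Mrps18c had a difference of 0.18 with an adjusted p of 0.115. Mrpl12 encodes the stalk protein that contacts translation factors and has also been described as a partner of the mitochondrial RNA polymerase. It was at 9.75, 9.68 and 9.68 with DKI and 9.04, 9.20 and 9.51 with vehicle (0.45 ± 0.11, adjusted p = 0.00144), again without overlap. Mrps10 (0.44 ± 0.07, adjusted p = 3.08e-06) and Mrpl2 (0.42 ± 0.07, adjusted p = 9.44e-06) completed the 8 largest rises.

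Among the genes named whatever their values, Mrps22, Mrps30, Mrpl3, Mrpl44 and Mrps16 also rose, by 0.39, 0.34, 0.27, 0.23 and 0.18 on the log2 scale. Human variants of several of these genes cause deficiencies of mitochondrial translation. Mrpl11 had a difference of 0.0058 (adjusted p = 0.962) and Mrps36 one of −0.12 (adjusted p = 0.233). The 2 genes that fell were Mrps21, a small subunit gene of bacterial descent, at 8.60, 8.46 and 8.43 against 8.67, 8.70 and 8.92 (−0.27 ± 0.10, adjusted p = 0.0291), and Mrpl49 (−0.15 ± 0.05, adjusted p = 0.0242). Without vehicle replicate 3 the differences were −0.18 and −0.0948 and neither passed the threshold, which Mrps21 also missed without DKI replicate 2 (−0.24) or 3 (−0.23) and Mrpl49 without DKI replicate 3 (−0.12).

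Against the 12 samples of the 4 nanomolar compounds, 39 genes were higher and 4 lower with DKI (background 24.6% higher), with a median log2 difference of 0.14, and 38 of the 39 were among the 47. With the trend on length and GC removed, 39 were higher and 4 lower (background 22.2% higher) with a median of 0.16, and all 39 were among the 47. A fit of the 6 samples alone called 21 genes higher (27.6%, background 12.5%) and 1 lower. DKI was collected on day 3, day 2 and day 3, and the vehicle once on each of 3 days.

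**Figure D2:**
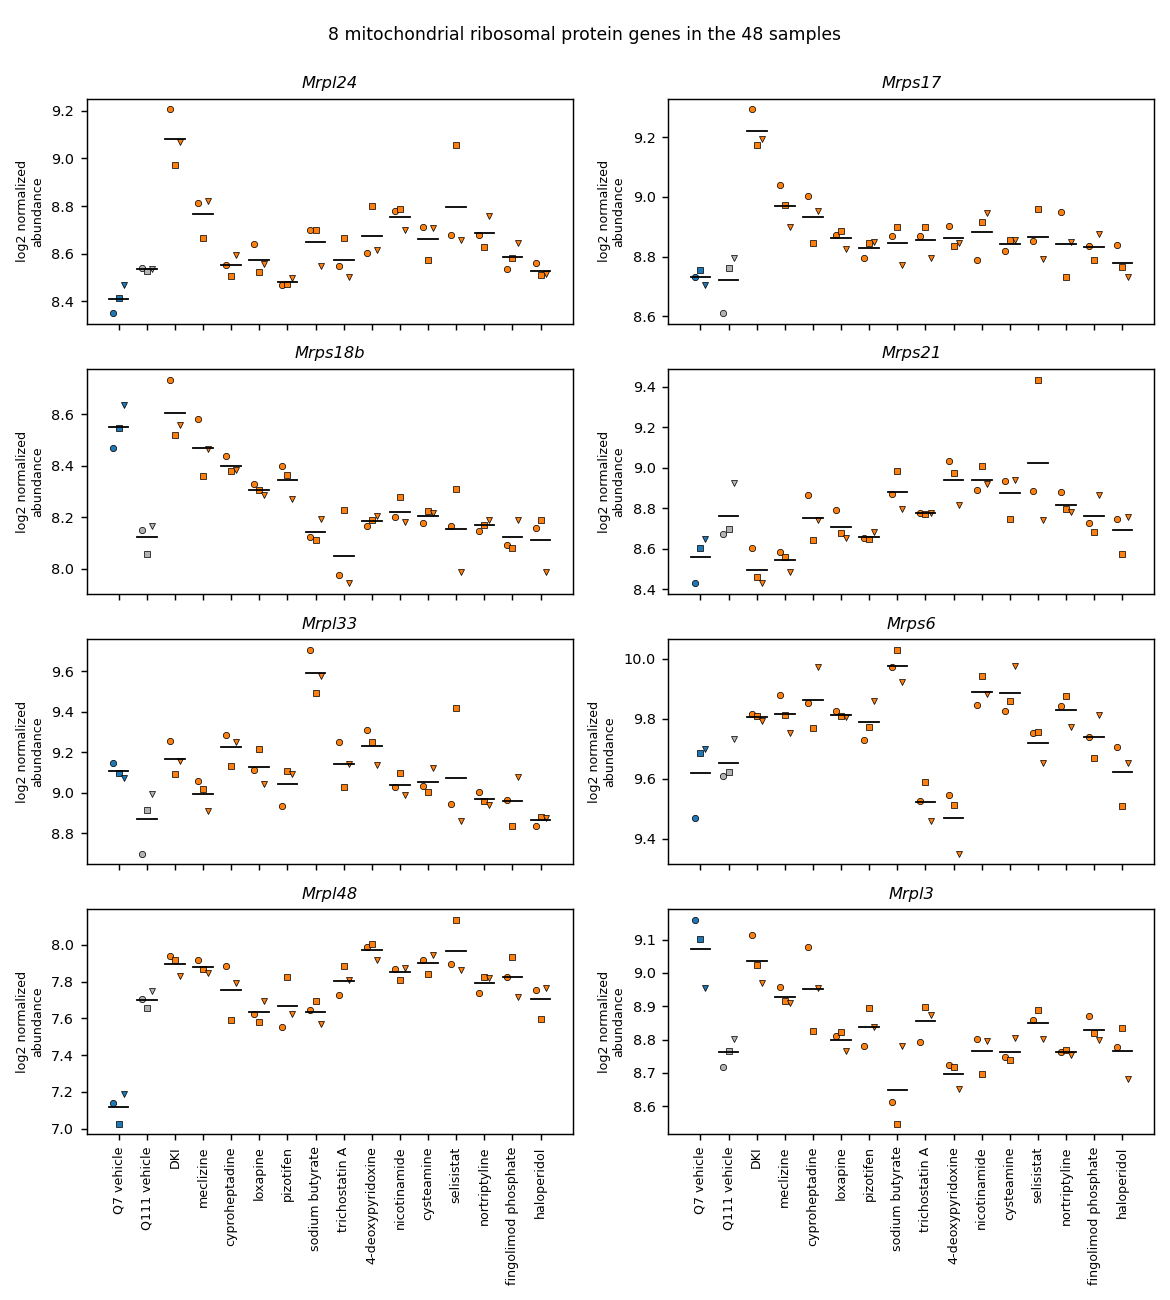
Log2 normalized abundance of 8 of the genes in the 48 samples, by condition, with the mean as a line and each panel on its own axis that does not start at 0. Mrpl24 and Mrps17 stand highest with DKI, Mrpl33 with sodium butyrate, Mrps6 lowest with 4-deoxypyridoxine and Mrpl48 lowest in STHdhQ7 cells.

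Promoter windows of 4 genes that changed with DKI and of Mrpl33 are shown because motifs of factors known to drive genes of mitochondrial proteins recur in them. RefSeq (GRCm38.p6) gave a window of 250 bases before to 50 after the start for 67 of the 76 genes. Capitals mark the NRF1 motif (GCGCANGCG) and the ETS motif bound by GABP (CCGGAAG), on either strand. The windows are those of Mrps18b (chr17:35916391-35916690, minus strand), Mrpl12 (chr11:120484387-120484686, plus), Mrpl52 (chr14:54426659-54426958, plus), Mrps21 (chr3:95871465-95871764, minus) and Mrpl33 (chr5:31613701-31614000, plus), each written 5′ to 3′.
Mrps18b: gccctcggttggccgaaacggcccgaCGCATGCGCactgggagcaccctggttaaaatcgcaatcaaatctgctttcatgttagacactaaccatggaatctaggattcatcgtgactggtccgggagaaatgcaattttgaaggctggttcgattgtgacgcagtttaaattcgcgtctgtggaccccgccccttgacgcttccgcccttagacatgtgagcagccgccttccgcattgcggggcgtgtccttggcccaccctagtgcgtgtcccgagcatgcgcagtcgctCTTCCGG
Mrpl12: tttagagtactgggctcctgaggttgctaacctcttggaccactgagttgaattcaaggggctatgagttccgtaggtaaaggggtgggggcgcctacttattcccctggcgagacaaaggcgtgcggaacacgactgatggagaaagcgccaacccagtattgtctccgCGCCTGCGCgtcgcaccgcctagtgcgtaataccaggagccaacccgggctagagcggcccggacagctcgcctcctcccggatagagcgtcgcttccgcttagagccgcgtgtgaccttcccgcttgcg
Mrpl52: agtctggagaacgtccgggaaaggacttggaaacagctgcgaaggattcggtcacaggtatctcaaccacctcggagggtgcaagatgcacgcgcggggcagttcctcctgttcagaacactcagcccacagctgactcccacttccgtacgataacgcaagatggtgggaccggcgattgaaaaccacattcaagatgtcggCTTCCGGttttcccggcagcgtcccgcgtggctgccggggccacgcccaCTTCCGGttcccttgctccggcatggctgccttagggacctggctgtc
Mrps21: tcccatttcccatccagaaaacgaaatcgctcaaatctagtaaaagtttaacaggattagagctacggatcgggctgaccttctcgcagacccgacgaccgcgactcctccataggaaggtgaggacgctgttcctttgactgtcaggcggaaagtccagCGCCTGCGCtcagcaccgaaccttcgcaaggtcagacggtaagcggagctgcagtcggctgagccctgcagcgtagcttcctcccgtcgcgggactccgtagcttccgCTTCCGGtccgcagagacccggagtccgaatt
Mrpl33: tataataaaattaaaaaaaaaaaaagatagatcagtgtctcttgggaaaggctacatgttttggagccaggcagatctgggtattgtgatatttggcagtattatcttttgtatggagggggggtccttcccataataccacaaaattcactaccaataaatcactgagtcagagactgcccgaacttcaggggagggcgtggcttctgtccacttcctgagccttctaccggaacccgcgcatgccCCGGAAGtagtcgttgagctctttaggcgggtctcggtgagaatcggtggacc

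The NRF1 motif was in 16 of the 67 windows (23.9%), against 13.5% of the 10081 windows of tested genes and 6.35% of all 27025. The ETS motif was in 24 (35.8%), against 17.6% and 9.08%, and 34 windows held at least 1 of both motifs (50.7%, against 28.2% of the windows of tested genes). A YY1 motif (AAGATGGC) was in 12 (17.9%), against 4.56% and 2.86%. The cAMP response element (TGACGTCA) was in 2, the ATF4 composite motif searched (TGATGCAA) in 0, the E-box CACGTG in 5 (7.46%, against 9.88% of tested windows) and the CCAAT letters in 27 (40.3%, against 38.6%). None of these letters marks a bound site. Both Mrps18b, which rose with DKI, and Mrps21, which fell, had the NRF1 and the ETS letters, and the windows of Mrpl24, Mrps17 and Mrpl47, the 3 largest rises, had neither. The median DKI difference was 0.23 for the 34 genes whose window held either motif and 0.22 for the 33 without, with 21 and 19 called higher.

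Meclizine, an antihistamine and the other member of Group B, moved fewer of the genes. 18 were higher and 1 lower than in vehicle (background 13.1% higher), with a median log2 difference of 0.12. Of the small subunit genes 10 of 25 rose, and of the large subunit genes 8 of 50. Mrps28 was at 7.53, 7.40 and 7.36 with meclizine and 6.80, 7.06 and 7.24 with vehicle (0.39 ± 0.09, adjusted p = 0.00128). Mrps18b was at 8.58, 8.36 and 8.47 against 8.15, 8.06 and 8.16 (0.34 ± 0.07, adjusted p = 2.81e-04). Neither gene's groups overlapped. Mrpl49 fell by 0.15 on the log2 scale (SE 0.05, adjusted p = 0.0291). Against haloperidol and fingolimod phosphate, which were collected on the same days and times, 15 were higher and 1 lower (background 14.8% higher), and Mrps28 differed by 0.40 and Mrps18b by 0.35. The count called was 10 without meclizine replicate 1, 12 without vehicle replicate 1 and 11 without vehicle replicate 2.

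**Figure D3:**
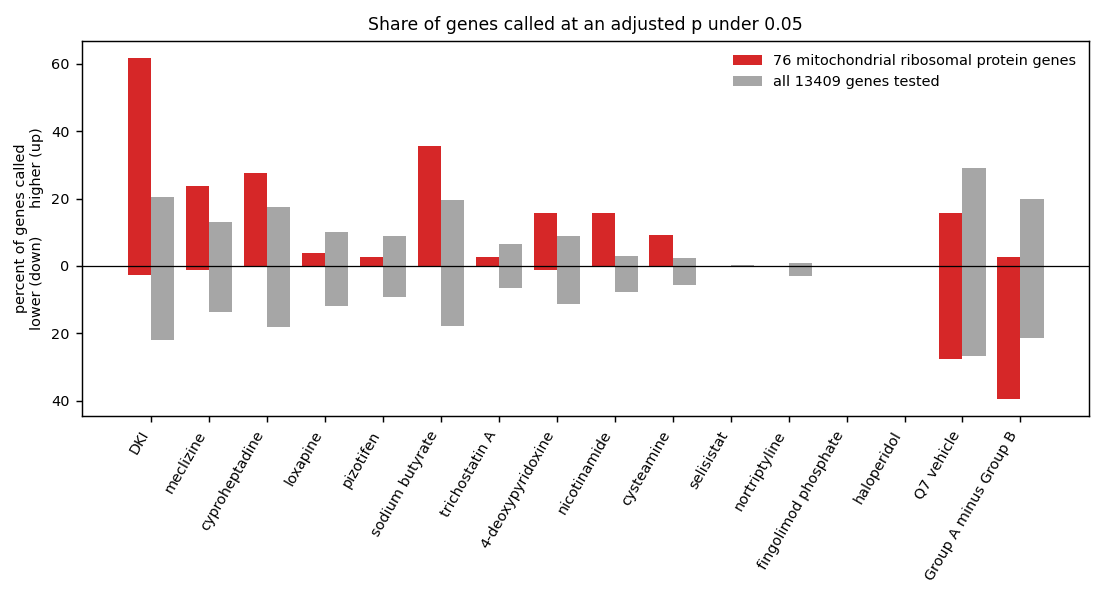
Percent of the 76 genes (red) and of all 13409 genes tested (grey) called higher (up) or lower (down) in each comparison at an adjusted p under 0.05. The red bar of DKI reaches 61.8% where the grey bar reaches 20.4%, and Group A minus Group B points down for 39.5% of the genes.

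The direct comparison of Group A with Group B did not involve the vehicle. Of the 76 genes, 30 were lower in the 9 Group A samples than in the 6 Group B samples and 2 were higher, which is 39.5% lower against 21.4% of all genes. The median log2 difference was −0.084. 19 of 50 large subunit genes and 11 of 25 small subunit genes were lower. Group B was not uniform, with 47 genes called higher than vehicle for DKI and 18 for meclizine. The sample medians over the 76 genes averaged 0.12 for DKI, 0.030 for meclizine, 0.042 for cyproheptadine, −0.0098 for loxapine and −0.033 for pizotifen. The part of each compound in the group difference was not tested. Mrpl24 ranged from 8.47 to 8.64 (median 8.52) in Group A and from 8.67 to 9.21 (median 8.90) in Group B, with no overlap (−0.39 ± 0.05, adjusted p = 1.08e-08).

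Mrpl23, which encodes uL23m at the tunnel exit, ranged from 4.69 to 5.08 (median 4.90) in Group A and from 4.81 to 5.36 (median 5.23) in Group B (−0.29 ± 0.07, adjusted p = 0.00154), with overlapping samples. Mrps9, another gene of bacterial descent, ranged from 9.60 to 9.90 against 9.82 to 10.18 (−0.24 ± 0.04, adjusted p = 1.53e-05). Mrps10 (−0.23), Mrpl52 (−0.23), Mrpl2 (−0.22), Mrps17 (−0.22) and Mrpl47 (−0.22) were next. The 2 genes that were higher in Group A, Mrps36 (8.13 to 8.27 against 7.90 to 8.05, 0.21 ± 0.05, adjusted p = 5.80e-04) and Mrps21 (8.64 to 8.86 against 8.43 to 8.60, 0.19 ± 0.06, adjusted p = 0.0189), did not overlap between the groups.

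**Figure D4:**
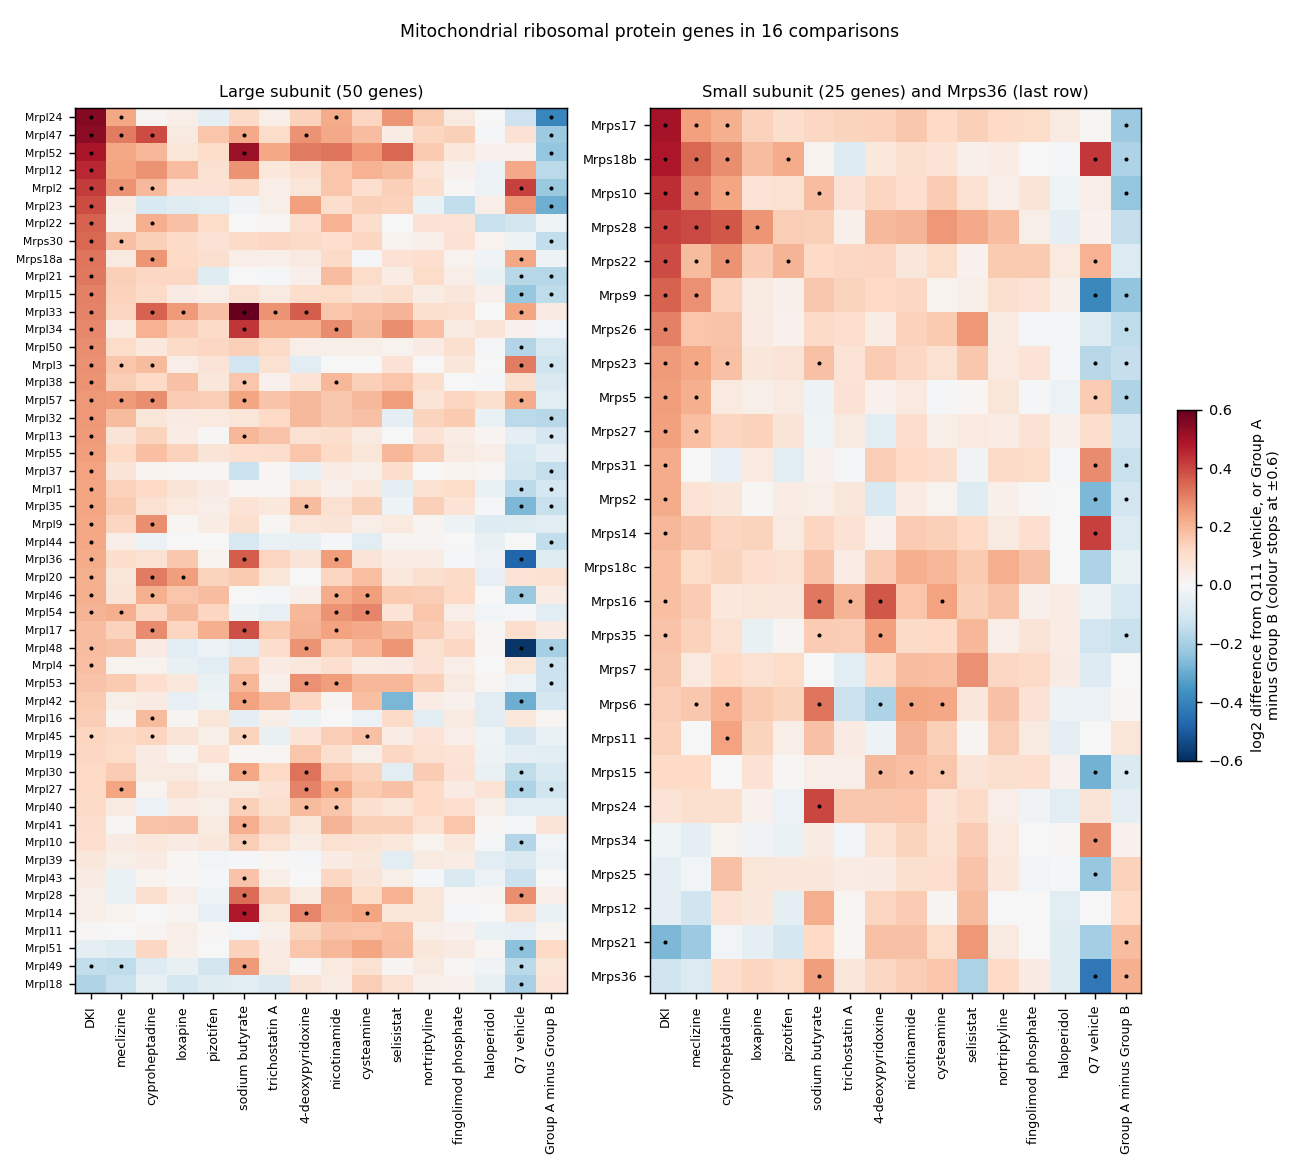
Log2 differences of the 76 genes in the 16 comparisons, with genes of each subunit ordered by their DKI difference and a dot on each gene called at an adjusted p under 0.05. 15 columns are differences from the same 3 STHdhQ111 vehicle samples, and the last is Group A minus Group B. The DKI column holds 49 dots, and the haloperidol, fingolimod phosphate, nortriptyline and selisistat columns hold 0.

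Within Group A the counts differed by compound, and the differences between the compounds were not tested. With cyproheptadine, an antihistamine that also blocks serotonin receptors, 21 genes were higher and 0 lower than with vehicle (background 17.5% higher), and the median was 0.12. Mrpl47 was at 8.36, 8.10 and 8.05 against 7.62, 7.84 and 7.88 (0.39 ± 0.08, adjusted p = 2.61e-04), and Mrps28 was at 7.62, 7.26 and 7.34 against 6.80, 7.06 and 7.24 (0.37 ± 0.09, adjusted p = 0.00178). The groups of neither gene overlapped. The count was 12 without vehicle replicate 1, 13 without cyproheptadine replicate 1 and 7 (9.21%, background 11.7% higher) when the 6 samples were fitted alone. Against the 4 nanomolar compounds 13 were higher (17.1%, background 21.9%) and 2 lower, so that under both the share was below that of all genes.

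With loxapine 3 genes were higher (background 10.1%), Mrps28 (0.26), Mrpl33 (0.26) and Mrpl20 (0.25), and the median was 0.067. With pizotifen 2 were higher (background 8.86%), Mrps18b (0.22) and Mrps22 (0.20), and the median was 0.054. Both shares were below the background. Against the 4 nanomolar compounds 1 gene was higher and 5 lower with pizotifen, with a median of −0.021. The share lower, 6.58%, was below the 12.1% of all genes. The loxapine count was 0 without vehicle replicate 1 or loxapine replicate 1, 1 without vehicle replicate 2 or loxapine replicate 2, and 11 without vehicle replicate 3. The pizotifen count was 0 without vehicle replicate 2 or pizotifen replicate 2, 1 without vehicle replicate 1 or pizotifen replicate 1 or 3, and 4 without vehicle replicate 3.

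Sodium butyrate, which inhibits histone deacetylases, gave 27 genes higher and 0 lower than vehicle (background 19.6% higher), with a median of 0.13. Here the large subunit had more calls, 20 of 50 against 6 of 25. Mrpl33, a small large-subunit protein of bacterial descent, had the largest difference in any of the compound comparisons. It was at 9.71, 9.49 and 9.58 with butyrate and 8.70, 8.92 and 8.99 with vehicle (0.72 ± 0.09, adjusted p = 7.56e-08), without overlap. Mrpl52 was at 7.89, 7.73 and 7.59 against 7.03, 7.18 and 7.44 (0.52 ± 0.12, adjusted p = 7.75e-04), and Mrpl14 at 8.64, 8.74 and 8.54 against 8.03, 8.14 and 8.30 (0.48 ± 0.07, adjusted p = 2.89e-06).

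The butyrate response was less broad with other comparators and after removal of the trend, by amounts that differed. Against nicotinamide and nortriptyline, which shared the collection days and times of butyrate, 9 genes were higher (11.8%, background 17%) and 4 lower, with a median of 0.0038. All 9 were among the 27. The sample medians over the 76 genes averaged 0.057 for nicotinamide, 0.0034 for nortriptyline and 0.044 for butyrate. With the trend on length and GC removed, 12 were higher (15.8%, background 15.8%) and 8 lower, with a median of 0.024. The share higher was thus below that of all genes with the former comparator and about equal to it after trend removal. Against the 4 nanomolar compounds 19 were higher (25%) and 3 lower, with a median of 0.0550. The share of all genes higher in that comparison is not given, so the 25% has no background here. Mrpl33 kept a log2 difference of 0.59 ± 0.08 against nicotinamide and nortriptyline (adjusted p = 2.44e-07), and Mrpl14 (0.34), Mrps24 (0.29) and Mrpl52 (0.28) were also called there. Against the vehicle, the count was 14 without vehicle replicate 1, 16 without vehicle replicate 2 and 17 without butyrate replicate 1.

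Trichostatin A, another histone deacetylase inhibitor, gave 2 genes higher (background 6.41%), Mrpl33 (0.27 ± 0.09, adjusted p = 0.0387) and Mrps16 (0.21 ± 0.07, adjusted p = 0.0409). Mrpl33 was at 9.25, 9.03 and 9.14 with trichostatin A, above the vehicle samples. The count was 0 without vehicle replicate 1 or 2 or trichostatin A replicate 1, and 1 without trichostatin A replicate 2. Against the 4 nanomolar compounds 1 gene was higher and 4 lower with trichostatin A (background 9.96% lower), with a median of 0.0036. At 10 nM and 1 mM the 2 compounds were not at matched doses, and their values stand side by side only.

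4-Deoxypyridoxine, an antagonist of vitamin B6, gave 12 genes higher and 1 lower (background 8.93% higher), with a median of 0.11. Mrps16 was at 8.17, 8.18 and 8.13 against 7.65, 7.74 and 7.97 (0.37 ± 0.07, adjusted p = 1.78e-04), and Mrpl33 at 9.31, 9.25 and 9.14 against 8.70, 8.92 and 8.99 (0.36 ± 0.09, adjusted p = 0.00370). Mrps6 was the gene that fell, from 9.61, 9.62 and 9.73 to 9.54, 9.51 and 9.35 (−0.18 ± 0.06, adjusted p = 0.0301). The groups of these 3 genes did not overlap. Mrps6 rose with 5 other compounds, the largest rise being 0.32 with butyrate, while the overlapping Slc5a3 had differences of −0.14 with 4-deoxypyridoxine (adjusted p = 0.267) and −0.18 with butyrate (adjusted p = 0.103). The count was 7 without vehicle replicate 1 and 22 without vehicle replicate 3, and against nicotinamide and nortriptyline 2 genes were higher (background 5.48%) and 2 lower.

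Nicotinamide gave 12 genes higher (background 2.82%) with a median of 0.15, led by Mrpl34 (0.29 ± 0.10, adjusted p = 0.0489) and Mrpl54 (0.27 ± 0.08, adjusted p = 0.0205). Cysteamine gave 7 higher (background 2.33%) with a median of 0.12, led by Mrpl54 (0.29 ± 0.08, adjusted p = 0.0154) and Mrpl46 (0.25 ± 0.07, adjusted p = 0.0244). Mrpl54, found only in mitochondria, was at 9.07, 9.12 and 9.10 with nicotinamide, 9.08, 9.13 and 9.15 with cysteamine and 8.63, 8.77 and 9.08 with vehicle, so that vehicle replicate 3 lay inside the range of both. Without vehicle replicate 1, or without vehicle replicate 2, both counts were 0, and without vehicle replicate 3 they were 28 and 16. The nicotinamide count was 1 without its own replicate 2 and 5 without replicate 3, and the cysteamine count was 4 without its replicate 1 and 0 without replicate 3. With the trend on length and GC removed, 1 gene was higher with nicotinamide (background 1.31%) and 2 with cysteamine (background 1.48%).

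For the other 4 compounds limma called 0 of the 76 genes. The shares of all genes called that follow are at an adjusted p under 0.05. The share of all genes with an unadjusted p under 0.05 is not given, so counts of the 76 at that threshold have no background here. Selisistat, a SIRT1 inhibitor collected on the same days and times as the vehicle, had a median of 0.092 and 25 genes with an unadjusted p under 0.05 (0.515% of all genes called). The count became 17 without selisistat replicate 3, 6 without selisistat replicate 1 and 3 without vehicle replicate 3. For counts without a replicate, here and above, the share of all genes called in the same refit is not given. Nortriptyline had a median of 0.086 and 12 genes at an unadjusted p under 0.05 (3.83% of all genes called), and a count of 3 without vehicle replicate 3. Fingolimod phosphate had a median of 0.054 and 2 such genes (0.0597% of all genes called), and haloperidol a median of −0.0070 and 0 such genes (0% of all genes called).

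Across the 14 compounds, all compared with the same 3 vehicle samples, 65 of the 76 genes (85.5%) were called higher at least once and 11 never, against 47.7% of all genes tested called higher at least once. This tally is not given with the trend on length and GC removed, and the part of that trend in it was not tested. Mrpl33 was called higher in 6, the most of any of the 76, and Mrpl47, Mrps16 and Mrps6 in 5 each.

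Among the genes called, falls outnumbered rises in the wild-type line, and in none of the compound comparisons with the vehicle. In the wild-type line the share lower was near that of all genes, and the share higher was below it. In STHdhQ7 vehicle cells 12 of the genes were higher (15.8%, background 29.2%) and 21 lower (27.6%, background 26.6%) than in STHdhQ111 vehicle cells, with a median of −0.050. Huntingtin itself (Htt) was at 9.01 to 9.29 in STHdhQ7 and 7.92 to 8.10 in STHdhQ111 (1.07 ± 0.08). The lines also differed in progenitor and fibroblast markers, with Nes at 9.93 to 11.66 against 4.72 to 5.20, Sox2 at 8.41 to 9.34 against 4.79 to 4.84, Sox9 at 7.66 to 7.74 against 9.52 to 9.60 and Col1a2 at 10.28 to 10.40 against 12.98 to 13.08. The part of these differences between the lines in the values below was not tested, and with 1 line a genotype, line and genotype cannot be told apart. Of the large subunit genes 6 were higher and 15 lower, and of the small subunit genes 6 and 5.

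Mrpl48 (ENSMUSG00000030706, chr7:100545751-100608301, minus strand), a large subunit gene found only in mitochondria, was at 7.14, 7.03 and 7.19 in STHdhQ7 and 7.70, 7.66 and 7.75 in STHdhQ111 (−0.58 ± 0.07, adjusted p = 1.15e-08). Mrpl36, which encodes a small protein of bacterial descent, was at 5.79, 5.85 and 5.87 against 6.35, 6.29 and 6.30 (−0.48 ± 0.07, adjusted p = 7.40e-07). Its head-to-head neighbour Ndufs6 was also lower (−0.36 ± 0.09). Mrps36 was at 7.57, 7.72 and 7.67 against 7.94, 8.10 and 8.20 (−0.43 ± 0.08, adjusted p = 9.94e-06). All 3 were separate between the lines.

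Mrps9 was lower by 0.39 on the log2 scale (9.14, 9.22 and 9.30 against 9.55, 9.63 and 9.65, difference −0.39 ± 0.07, adjusted p = 3.43e-06), followed by Mrpl42 (−0.29), Mrps15 (−0.28), Mrpl35 (−0.27) and Mrps2 (−0.27). On the other side Mrps18b was at 8.47, 8.55 and 8.63 against 8.15, 8.06 and 8.16 (0.43 ± 0.07, adjusted p = 2.50e-06). Its head-to-head neighbour Ppp1r10, which encodes a regulatory subunit of protein phosphatase 1, was also higher (0.46 ± 0.05). Mrps14 was at 8.60, 8.69 and 8.55 against 8.10, 8.14 and 8.36 (0.41 ± 0.08, adjusted p = 3.06e-05), and Mrpl2 at 9.16, 9.16 and 9.22 against 8.76, 8.72 and 8.84 (0.41 ± 0.07, adjusted p = 6.17e-06). Neither gene overlapped between the lines.

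Mrpl3, a core large subunit gene, was at 9.16, 9.10 and 8.95 against 8.72, 8.77 and 8.80 (0.31 ± 0.06, adjusted p = 1.82e-05), and Mrps31 (0.28), Mrps34 (0.28), Mrpl28 (0.28) and Mrpl33 (0.24) were the next of the higher genes. Over the 76 genes the Pearson correlation between the line differences and the differences of Group A minus Group B, which share no samples, was −0.13, and genes are not independent replicates. With the trend on length and GC removed 12 genes were higher (15.8%, background 27.3%) and 19 lower (25%, background 32%) in STHdhQ7.

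The other parts of the mitochondrial translation machinery were described by lists. With DKI, 4 of 6 mitoribosome subunits under other symbols rose and 0 fell, among them Chchd1 (0.31 ± 0.08) and Ict1 (0.24 ± 0.07), the older symbol of Mrpl58. Of 23 assembly factors 13 rose and 0 fell with a median of 0.18, and the largest rises were C1qbp (0.80 ± 0.06), a matrix protein needed for mitochondrial translation, and Gtpbp10 (0.55 ± 0.06), a GTPase of large subunit assembly. Of 15 translation factors 5 rose and 1 fell, with Mtrf1, a release factor, at 0.37 ± 0.09 and Guf1 at 0.36 ± 0.08. Of 19 mitochondrial tRNA synthetases 8 rose and 2 fell, led by Gars (1.09 ± 0.08), which serves the cytosol too, and Nars2 (0.49 ± 0.08). Of all genes tested 20.4% were higher with DKI, and their median difference was −0.0058.

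Of 10 genes for expression of mitochondrial DNA 5 rose with DKI and 0 fell, with Tfam, the packaging and transcription factor of that DNA, at 0.48 ± 0.06. Of 15 regulators of mitochondrial biogenesis and stress 8 rose and 2 fell. The leading ones, Ddit3 (1.90 ± 0.13) and Myc (1.42 ± 0.12), are general transcription factors of stress and growth. Ppargc1a, the coactivator best known for mitochondrial biogenesis, rose by 0.48 ± 0.08. Of 59 cytosolic ribosomal protein genes 58 rose with a median of 0.44. Of 70 nuclear subunits of the respiratory chain 10 rose and 4 fell with a median of 0.035, a share of rises below the 20.4% of all genes. Against the 4 nanomolar compounds the respiratory chain counts were 10 and 9 with a median of −0.045, and those of the cytosolic ribosomal proteins 58 and 0. There 24.6% of all genes were higher.

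The 13 messages that the mitochondrial ribosome translates were counted in the same way, in libraries made from polyadenylated RNA. With DKI 0 rose and 4 fell, with a median of −0.25, and ATP6 (−0.78 ± 0.26) and COX2 (−0.68 ± 0.25) had the largest falls. Against the 4 nanomolar compounds 0 rose and 9 fell with DKI, with a median of −0.36. With the same comparator 0 rose and 8 fell with meclizine (median −0.40), and 1 rose and 11 fell with selisistat (median −0.56). With each other compound set against it, 0 rose and 0 fell. The share of all genes lower with DKI is not given. In Group A minus Group B all 13 were higher (median 0.47, CYTB 0.75 ± 0.12 and COX3 0.69 ± 0.15), while 30 of the 76 ribosomal genes and 56 of 59 cytosolic ribosomal protein genes were lower. In STHdhQ7 all 13 were higher than in STHdhQ111, with a median of 1.18, and ND3 was at 11.73 to 12.24 against 9.88 to 10.10 (2.04 ± 0.25). Of the other lists, 6 of 15 translation factors were higher and 2 lower in STHdhQ7, led by Lrpprc (0.65 ± 0.07), which stabilizes mitochondrial messages, and Tsfm (0.46 ± 0.08), an elongation factor. Of assembly factors 8 of 23 were higher and 2 lower, led by Mtg2 (0.42 ± 0.08) and Fastkd2 (0.34 ± 0.07), and of tRNA synthetases 10 of 19 were higher and 3 lower, with Kars at −0.56 ± 0.06 and Mars2 at 0.51 ± 0.07. Ppargc1a was lower in STHdhQ7 (−1.03 ± 0.08) and Atf5 higher (0.55 ± 0.11). Of all genes tested 29.2% were higher and 26.6% lower in STHdhQ7.

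**Figure D5:**
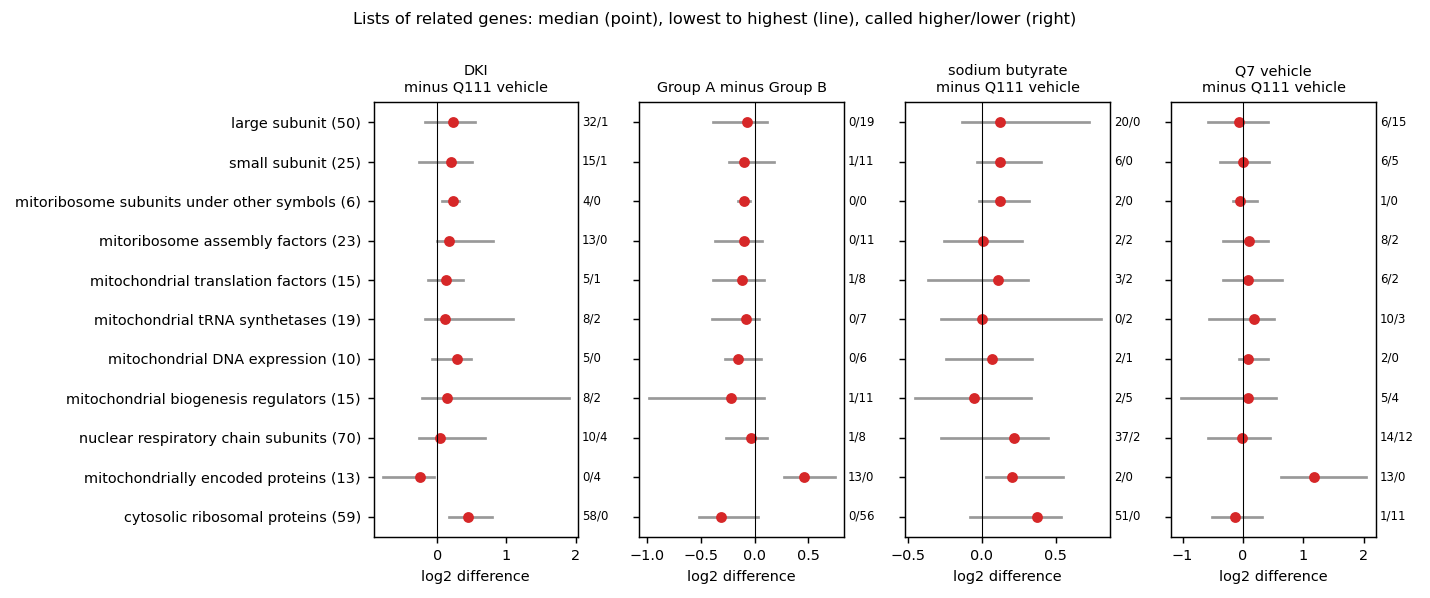
Median (point) and range (line) of the log2 differences of each list in 4 comparisons, with the numbers of genes called higher and lower at the right and each panel on its own scale. The 2 subunits lie at 0.23 and 0.20 with DKI, and the mitochondrially encoded proteins at −0.25 with DKI and 1.18 in STHdhQ7.

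With sodium butyrate 37 of 70 nuclear respiratory chain subunits rose and 2 fell (median 0.22), against 2 and 2 of 23 assembly factors (median 0.011), and 51 of 59 cytosolic ribosomal protein genes rose (median 0.37). With 4-deoxypyridoxine 54 of 59 cytosolic ribosomal protein genes rose and 0 of 23 assembly factors. Of all genes tested 19.6% were higher with butyrate and 8.93% with 4-deoxypyridoxine. Against nicotinamide and nortriptyline (17% of all genes higher), 13 of 70 respiratory chain subunits rose and 2 fell with butyrate, and 27 and 1 of 59 cytosolic ribosomal protein genes. These lists hold genes with short transcripts too, and the part of the length trend in their medians was not tested list by list.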

How the data were processed

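RNA-Seq was made from 48 samples, 3 for each of 16 conditions. The authors made polyadenylated RNA libraries with a strand-specific kit, read single 50-base ends, trimmed them with Trimmomatic 0.36, estimated abundances with RSEM on the GRCm38.p5 transcriptome (GENCODE M12), and used DESeq2. The deposited values are log2 normalized abundances. The transformation is not given in the sources used here, counts were not used here and the depth per sample is unknown, so no counting intervals are given, and 0 columns belonged to no sample.

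Of 27281 rows, 18178 had a symbol, and the 13409 with a symbol and a mean of at least 1 were fitted with limma 3.58.1 (R 4.3.3): a mean for each condition plus the collection day, with a mean-variance trend and 30 residual degrees of freedom. P-values were adjusted by Benjamini-Hochberg over all 13409 genes within a comparison, and adjusted p under 0.05 was called. The fit was tested on simulated data. Samples were grouped by the labels. All comparisons but Group A minus Group B share the 3 vehicle samples. The set of members was proposed, and the lists were chosen, with earlier results of these data known, although the rule that picks the members uses names and mean level only.

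Named genes were up to 8 called genes with the largest rise and up to 8 with the largest fall for STHdhQ7, DKI and Group A minus Group B, up to 2 each way elsewhere, the extremes of level, spread and correlation, and 12 named whatever their values. Of other lists, up to 2 called genes with the largest change were named. Ndufs6, Ppp1r10, Slc5a3, Ppargc1a and Nme3, genes of Group A minus Group B beyond the members, and further called genes beside these were chosen after their values were seen. Alternatives were another minimum mean, other covariates, fits of only the samples compared, other scalings, and leaving out each replicate. Counts without a replicate are given without the share of all genes called in the same refit. The comparators of nanomolar compounds and of shared collection times, and the removal of the trend on transcript length and GC content, were chosen after the data were seen. Gene models were those of GENCODE M21, on the same build. Replicate numbers did not pair samples: same-numbered samples correlated above 0.1 in 9 of 120 pairs of conditions. Figures used Python 3.11.15, pandas 2.3.3 and matplotlib 3.10.9.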

Additional observations from a re-analysis of the deposited data

Results flagged for a closer look

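Of 20 groups of named genes examined in the comparison of Group A with Group B, 3 had a single sample far from the others. The groups pool compounds and their genes share samples, so no chance rate is given. A difference between compounds and a stray sample cannot be told apart here. Mrps9 had its highest Group A value, 9.90, in cyproheptadine replicate 1, and its highest Group B value, 10.18, in DKI replicate 1. Mrpl52 had its highest Group A value, 7.57, also in cyproheptadine replicate 1. Both of these samples were collected on day 3 at the first time of day, and their medians over the 76 genes, 0.10 and 0.17, were the highest of their conditions. The part of collection in these values was not tested.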

How the results depend on the processing

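Over the alternatives no named gene's difference changed sign: of 973 values of 56 named differences, 871 stayed called and 102 did not pass the threshold. In number called, the DKI, STHdhQ7 and Group A minus Group B results stayed within 1.5 times in every alternative except DKI in the fit of only the samples compared. With the 4 nanomolar compounds as comparator the number of genes called was 3 for selisistat (1 higher, 2 lower), 5 for trichostatin A (1 higher, 4 lower), 6 for pizotifen (1 higher, 5 lower) and 0 for cysteamine, and the median log2 difference was 0.0497 for meclizine, 0.0550 for sodium butyrate, 0.0495 for cyproheptadine, 0.00710 for loxapine, 0.0362 for 4-deoxypyridoxine, 0.0348 for selisistat, 0.00356 for trichostatin A, 0.144 for DKI, −0.0214 for pizotifen and 0.0498 for cysteamine. With comparators of the same collection times the numbers were 13 for sodium butyrate, 4 for 4-deoxypyridoxine, 1 for pizotifen and 0 for cysteamine, and the medians 0.00382 for sodium butyrate, −0.0404 for loxapine, −0.00242 for 4-deoxypyridoxine and 0.00361 for cysteamine. With the trend on transcript length and GC removed the numbers were 5 for loxapine, 1 for trichostatin A, 1 for nicotinamide, 4 for pizotifen and 2 for cysteamine, and the medians 0.0238 for sodium butyrate, 0.0225 for 4-deoxypyridoxine, 0.164 for DKI, 0.0576 for nicotinamide, 0.0295 for nortriptyline and 0.0421 for cysteamine. Fitting only the samples compared gave 7 for cyproheptadine, 6 for loxapine, 0 for trichostatin A, 22 for DKI, 4 for pizotifen and 16 for cysteamine, with a median of 0.0577 for cyproheptadine. With no minimum mean the number was 1 for loxapine and 1 for trichostatin A. For loxapine it was 5 with a minimum mean of 6, 6 without collection day and 6 with quantile normalization. With collection time added it was 0 for trichostatin A and 7 for nicotinamide. The causes of these shifts were not tested.

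Leaving out 1 replicate at a time, the number called was 7 to 22 for 4-deoxypyridoxine, 12 to 27 for cyproheptadine, 0 to 16 for cysteamine, 37 to 57 for DKI, 0 to 0 for fingolimod phosphate, 27 to 34 for Group A minus Group B, 0 to 0 for haloperidol, 0 to 11 for loxapine, 10 to 26 for meclizine, 0 to 28 for nicotinamide, 0 to 3 for nortriptyline, 0 to 4 for pizotifen, 23 to 30 for Q7 vehicle, 0 to 17 for selisistat, 14 to 35 for sodium butyrate and 0 to 3 for trichostatin A. The median log2 difference then was 0.0832 to 0.152 for 4-deoxypyridoxine, 0.0846 to 0.173 for cyproheptadine, 0.0937 to 0.180 for cysteamine, 0.178 to 0.251 for DKI, 0.0240 to 0.119 for fingolimod phosphate, −0.0989 to −0.0726 for Group A minus Group B, −0.0400 to 0.0350 for haloperidol, 0.0386 to 0.120 for loxapine, 0.0871 to 0.158 for meclizine, 0.0975 to 0.200 for nicotinamide, 0.0559 to 0.136 for nortriptyline, 0.0251 to 0.0896 for pizotifen, −0.0894 to −0.00251 for Q7 vehicle, 0.0234 to 0.142 for selisistat, 0.10 to 0.17 for sodium butyrate and 0.0290 to 0.123 for trichostatin A.

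The replicate number as a block in place of the collection day, although the numbers do not pair the samples, gave 48 higher and 2 lower for DKI, 28 and 0 for sodium butyrate and 2 and 31 for Group A minus Group B, and the same counts as before in the other comparisons. Over all 13409 genes, the fit of only the samples compared moved the number called from 4780 to 3115 for cyproheptadine, 5673 to 3393 for DKI, 1755 to 1008 for trichostatin A, 513 to 217 for nortriptyline, 8 to 592 for fingolimod phosphate, 1050 to 1718 for cysteamine and 69 to 0 for selisistat. The nanomolar comparator gave 1125 for selisistat, 2896 for trichostatin A and 41 for cysteamine, the comparator of the same collection times 1416 (from 2697) for 4-deoxypyridoxine and 16 for cysteamine, and removal of the trend 584 (from 1396) for nicotinamide, 278 for nortriptyline, 494 for cysteamine and 38 for selisistat. Other covariates or minimum means gave 6 to 38 for selisistat, 5 to 67 for fingolimod phosphate and 1 in place of 0 for haloperidol. Without counts or depths, differences of low genes such as Mrpl23 cannot be given a counting error.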
